A study of Arabidopsis thaliana with 4 samples.

Results

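Transcripts of 4 genes, AT2G43620 (chitinase family), AT4G22470 (lipid transfer type), AT4G23680 (major latex type) and AT1G65500 (a small protein of unknown function), were followed in Arabidopsis seedlings of the css1 mutant and of the wild type. The genes were chosen because their signals rose strongly in css1 against wild type, so their own values are a description and carry no test. Each is measured by a single probe set that the platform annotation assigns to that gene alone, so they take up 4 of the 22746 probe sets, and 4 of the 13286 loci that have a named probe set. The css1 group held 2 independent RNA samples from the css1 mutant, and the wild-type group 2 from the Columbia accession. All plants were whole seedlings at 9 days, raised in constant light on an agar medium with 2% sucrose, and each RNA sample was read on its own 1-colour Affymetrix array. The labels give neither the gene affected in css1 nor its allele, and the css1 transcript itself is not analysed here. Whole seedlings mix shoot and root, so a change in transcript per cell and a change in the share of a cell type cannot be told apart in these values.

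Chitinases cleave chitin, the polymer of fungal cell walls and insect cuticle, and plants make several as part of defence. Lipid transfer-type proteins are small secreted proteins held together by conserved cysteines that bind lipids in a hydrophobic cavity, and the hybrid proline-rich members join such a domain to a proline-rich stretch of cell-wall type. The lipid transfer-type protein DIR1 and the hybrid proline-rich protein AZI1 of Arabidopsis take part in systemic acquired resistance. Major latex-type proteins, named after a protein of poppy latex, share the fold of the birch pollen allergen Bet v 1, a hydrophobic pocket for small ligands.

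The deposited values are log2 signals made by the authors with RMA, and the number of arrays limits their precision. Over all probe sets, the standard error of a difference between genotypes had a median of 0.0996 log2 units. This and every SE below is the moderated one of limma, which draws each probe set's variance toward that of all probe sets. It therefore does not follow from the SDs printed for a gene, and can be smaller or larger than they imply. The correlation over probe sets was 0.997 between the css1 arrays and 0.996 between the wild-type arrays. Of the tissue markers with a named probe set, the leaf genes RCA and LHCB4.2 (2 of 12 listed) lay at the top of the signal range in both genotypes, at mean percentiles of 99.3 or more. RCA was at −0.23 and did not pass (limma, Benjamini-Hochberg adjusted p = 0.128). LHCB4.2 had 12.43 and 12.34 in css1, against 11.90 and 13.11 in wild type. Its difference of −0.12 (adjusted p = 0.865) was −0.72 when wild-type replicate 1 was dropped (adjusted p = 0.0210) and 0.48 when wild-type replicate 2 was (adjusted p = 0.0571), so its direction turned with the wild-type array used. The root hair expansins EXPA7 and EXPA18 (2 of 11 root markers) were at mid-range. The root markers' differences were −0.33 and −0.51 and did not pass (limma, Benjamini-Hochberg adjusted p = 0.123 and 0.0858). No seed or flower marker of the lists was measured by a named probe set.

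AT2G43620, of the chitinase family, had the largest rise among the probe sets matched to a named locus. Its log2 signal was 11.65 and 11.36 in css1 replicates 1 and 2, against 7.20 and 6.78 in wild-type replicates 1 and 2. Both css1 arrays lay far above both wild-type arrays. The group means were 11.51 ± 0.20 in css1 and 6.99 ± 0.29 in wild type (SD, n = 2 each), a difference of 4.52 (SE 0.17) or 22.9-fold. Over the 4 possible pairs of a css1 with a wild-type array, the fold ranged from 17.9 to 29.2.

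AT4G22470, for a lipid transfer-type protein, had the lowest starting point of the 4. Its log2 signal was 9.25 and 9.20 in css1, against 5.64 and 4.82 in wild type. The css1 arrays were nearly equal (SD 0.034), while the wild-type arrays were 0.82 apart (SD 0.58), a spread larger than that of 99.4% of all probe sets. The difference was 3.997 (SE 0.26), a 15.97-fold rise, and the fold over the 4 array pairs ran from 11.8 to 21.6. The uncertainty in its size therefore came from the wild-type level. The RefSeq annotation places the neighbouring locus AT4G22467 across the span of AT4G22470, and how far this probe set also reads that locus was not tested.

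AT4G23680, for a major latex-type protein, had the tightest values. Its log2 signal was 12.53 and 12.60 in css1, against 8.94 and 8.87 in wild type. The SD was 0.044 in css1 and 0.046 in wild type, and the difference of 3.66 (SE 0.086) corresponded to 12.6-fold. The 4 array pairs gave folds of 12.1 to 13.2, the narrowest range of the 4 genes.

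AT1G65500, the small protein gene, had log2 signals of 11.30 and 10.95 in css1, against 7.74 and 7.38 in wild type. The groups were well apart although the replicates differed by 0.35 in css1 and 0.36 in wild type. The difference was 3.56 (SE 0.17), 11.8-fold, with folds of 9.21 to 15.2 over the array pairs.

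**Figure D1:**
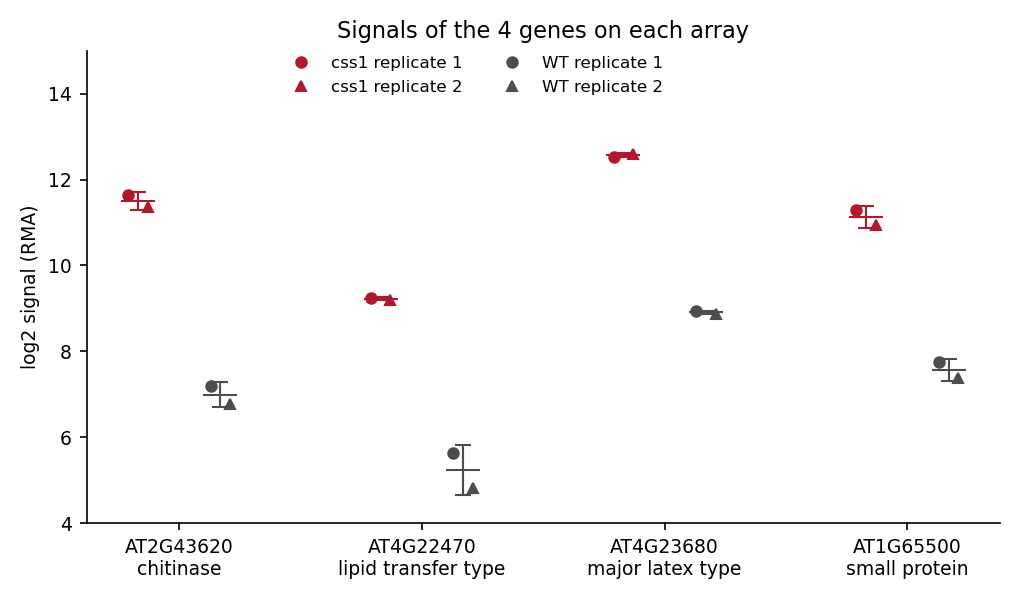
Log2 RMA signal of AT2G43620, AT4G22470, AT4G23680 and AT1G65500 on each array, css1 in red and wild type (WT) in grey; circles are replicate 1, triangles replicate 2, and bars the mean ± SD (n = 2). Both css1 arrays lie above both wild-type arrays for each gene, and the widest gap between replicates is that of AT4G22470 in wild type (5.64 and 4.82).

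By size of difference, the 4 genes stood at places 1, 3, 7 and 9 among the probe sets matched to a named locus and at places 3, 7, 12 and 16 among all probe sets. At the lower edge, AT1G65500 (3.56) stood just below the defensin-type gene LCR67 (3.57) and just above the dihydroflavonol reductase gene DFR (3.44) and AT1G10585 (3.42).

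The level reached was described by the place of each signal within its own array, since probe sets differ in binding and their signals cannot be read as transcript amounts. AT4G23680 reached percentiles of 99.5 on both css1 arrays, above the mark of the 99th percentile (12.07 and 12.08 on those arrays), against 86.1 and 85.7 on the wild-type arrays. It was thus already in the upper part of the signal range in wild type. AT2G43620 reached 98.3 and 97.8 in css1, against 63.1 and 56.6 in wild type. AT1G65500 reached 97.7 and 96.96 in css1, against 71.6 and 66.3 in wild type. AT4G22470 reached 88.7 and 88.4 in css1, against 40.1 and 31.2 in wild type. Its wild-type signals were in the lower part of the range, where array signals are known to compress differences.

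**Figure D2:**
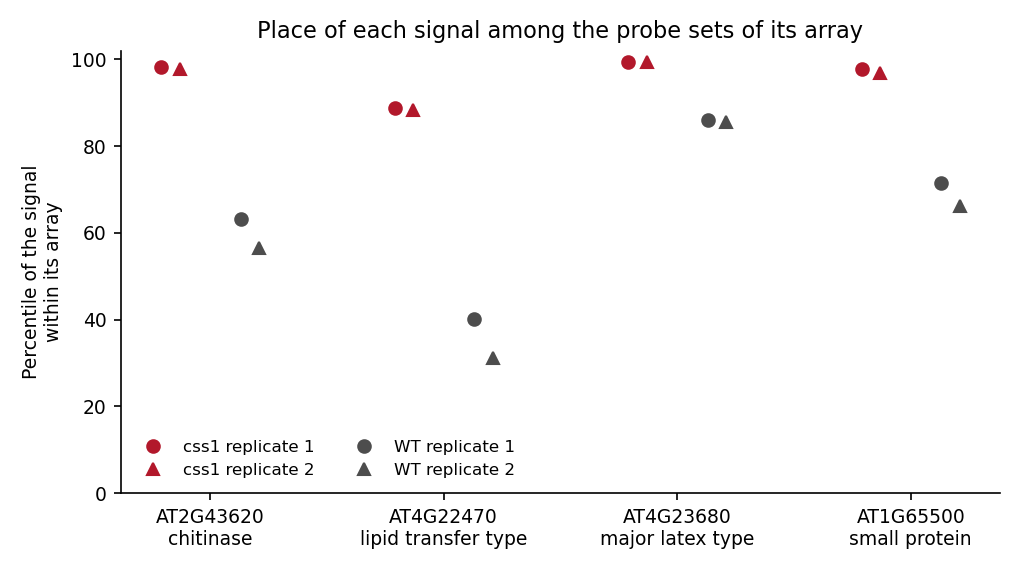
Percentile of each gene's signal among the 22746 probe sets of its array (y axis, 0 to 100), css1 in red and wild type (WT) in grey, circles for replicate 1 and triangles for replicate 2. In css1, AT2G43620, AT4G23680 and AT1G65500 lie at 96.96 or above and AT4G22470 at 88.4 and 88.7; in wild type the genes range from 31.2 to 86.1.

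Of the 20 named probe sets with the largest rise, 5 had a mean css1 signal at the 97th percentile or above. These were AT2G43620, AT4G23680, AT1G65500, the defensin gene PDF1.2 and the lipid transfer-type gene AT4G12490. In the same 20, 6 had a mean wild-type signal below the 25th percentile, and none of the 4 genes was among those 6. The 4 genes were chosen from these same values and neither percentile cut was planned, so their places in these counts are a description. AT1G65500 lay just above the upper cut, at a mean css1 percentile of 97.3.

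In wild type, all 4 genes were higher in replicate 1 than in replicate 2, by 0.82 in AT4G22470, 0.42 in AT2G43620, 0.36 in AT1G65500 and 0.065 in AT4G23680. In css1, replicate 1 was higher for 3 of the 4, and AT4G23680 was 0.063 lower there. Over all probe sets, 54.6% were higher in wild-type replicate 1 than in wild-type replicate 2, and 56.2% were higher in css1 replicate 1 than in css1 replicate 2. Between same-numbered arrays, the css1 minus wild-type difference was 4.45 and 4.58 for AT2G43620 and 3.56 and 3.57 for AT1G65500. It was 3.60 and 3.72 for AT4G23680, and 3.61 and 4.38 for AT4G22470.

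Likeness of pattern was measured as the Euclidean distance between the 4 log2 values after centring on the wild-type mean, over the 4 arrays and all probe sets matched to a locus. AT4G23680 and AT1G65500 were near each other (0.39), and DFR was nearest to AT4G23680 (0.35) and second to AT1G65500 (0.46). The mitochondrial stress marker gene AT2G21640 (UPOX) came next for AT4G23680 (0.42), and LCR67 for AT1G65500 (0.65). For AT4G22470 the nearest were the GDSL-type lipase gene AT1G54020 (0.70), PDF1.2 (0.71) and AT4G23680 (0.72). AT2G43620 stood farther off, with AT4G22470 at 0.81, AT1G54020 at 0.84 and AT4G23680 at 1.26. With 4 arrays in 2 groups, such distances mostly rank genes by the size of their rise.

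The other genes of the same families were listed by family membership and were tested with limma. Their lists were drawn up with earlier results of these data known, so the shares called below were not blind to the data. A probe set passed when its p, adjusted by Benjamini-Hochberg across the 22746 probe sets, was under 0.05. At this threshold 15.6% of all probe sets were called, 7.63% higher and 8.01% lower in css1. The balance depended on the scaling and on the arrays used: of the calls, 48.8% were higher in css1, against 58.0% with each array centred on its median (2069 higher, 1497 lower), 62.4% when css1 replicate 1 was dropped (411 higher, 248 lower) and 60.0% when css1 replicate 2 was (336 higher, 224 lower). Of the probe sets matched to a locus, as the relatives are, 13.7% were called, 6.89% higher and 6.83% lower. Of 95 listed relatives, 45 were measured by a named probe set, and 14 of those passed (31.1%), 8 higher and 6 lower in css1. Their median difference was 0.02, against −0.03 over all probe sets. None of the 45 relatives reached the difference of AT1G65500. Most of the 14 calls were lost when 1 array or another was dropped, as given for each gene below. Calls over all probe sets also became fewer without 1 array, and the share of them that held was not computed. AT4G22610, AT4G12490 and AT4G12500 rose by 1.88 or more whichever array was dropped.

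Most chitinase genes did not pass. Apart from AT2G43620, 14 of 23 listed chitinase genes were measured, with 1 higher, 1 lower and 12 not passing, a share of 14.3%, near the background of 13.7%. The median difference was 0.03. CHI (AT2G43570), another chitinase, had log2 signals of 9.43 and 9.41 in css1, against 8.41 and 8.01 in wild type. It rose 2.32-fold (1.21, SE 0.14, limma adjusted p = 0.00732), which did not pass without css1 replicate 1 (1.20, adjusted p = 0.0565) or css1 replicate 2 (1.23, adjusted p = 0.0609). AT1G02360, also of the chitinase family, had 7.13 and 7.08 in css1, against 7.78 and 7.49 in wild type. It fell by 0.53 (SE 0.12, limma adjusted p = 0.0385), and did not pass without css1 replicate 1 (−0.56, adjusted p = 0.153), css1 replicate 2 (−0.51, adjusted p = 0.198) or wild-type replicate 1 (−0.38, adjusted p = 0.0725).

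Among the chitinase genes that did not pass, differences lay between −0.27 and 0.38. ChiC (AT4G19810), an exochitinase, was at 0.25 (limma adjusted p = 0.139) and AT3G47540 at −0.27 (adjusted p = 0.197). AT2G43580 was at 0.38 (adjusted p = 0.0933) and passed without wild-type replicate 1 (0.52, adjusted p = 0.0419; 0.0419 to 0.359 over its alternatives).

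AT2G43620 is the last of 6 chitinase-type loci, AT2G43570 to AT2G43620, that follow each other on the chromosome with 2 non-coding loci between, and all 6 were measured. The differences along this run were 1.21 for CHI, 0.38 for AT2G43580, −0.00 for AT2G43590, 0.21 for AT2G43600 and −0.23 for AT2G43610, against 4.52 for AT2G43620. AT2G43590, outside the rule for naming genes and given to complete the run, with a mean wild-type percentile of 94.3, had 10.10 and 10.23 in css1, against 10.54 and 9.80 in wild type, so that its groups overlapped. Its sign turned with centring and with the arrays left out, from −0.37 without wild-type replicate 2 to 0.36 without wild-type replicate 1. The groups of AT2G43610, the chitinase next to AT2G43620, also overlapped, with 7.37 and 7.92 in css1, against 8.11 and 7.66 in wild type.

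**Figure D3:**
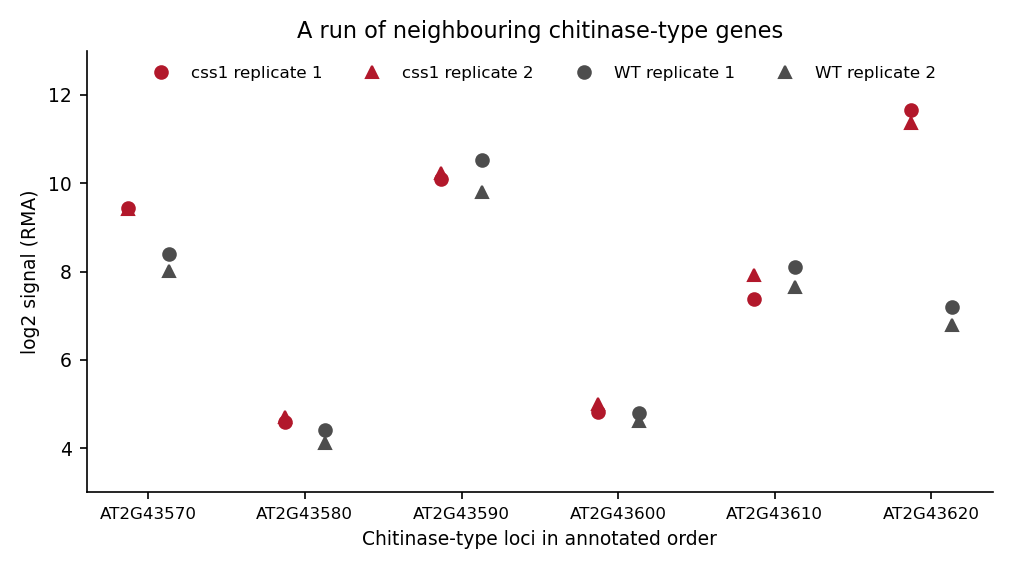
Log2 RMA signal on each array of the 6 chitinase-type loci in their annotated order (x axis), css1 in red and wild type (WT) in grey, circles for replicate 1 and triangles for replicate 2. The genotypes are far apart at AT2G43620 (means 11.51 and 6.99), less so at AT2G43570 (9.42 and 8.21), and overlap at AT2G43590 and AT2G43610.

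Hybrid proline-rich and related lipid transfer-type genes, the relatives of AT4G22470, were called in both directions. Of 33 listed, 13 were measured: 4 were higher, 3 lower and 6 did not pass, a share of 53.8% against 13.7%. The median was 0.02. AT4G12490, a hybrid proline-rich gene of the AZI1 cluster, had log2 signals of 11.48 and 11.20 in css1, against 8.76 and 7.85 in wild type. It rose 8.20-fold (3.04, SE 0.29, limma adjusted p = 0.00428). As for AT4G22470, its wild-type arrays were farther apart than its css1 arrays, with replicate 1 the higher.

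AT4G12500, of the same cluster, had 9.23 and 8.94 in css1, against 7.19 and 6.48 in wild type, and rose 4.75-fold (2.25, SE 0.24, limma adjusted p = 0.00565). Genes of this cluster are close in sequence, and how far either probe set reads its neighbours was not tested. AT4G22610, a lipid transfer-type gene, had 7.02 and 7.37 in css1, against 5.23 and 5.04 in wild type, and rose 4.17-fold (2.06, SE 0.14, limma adjusted p = 0.00216). These 3 rises were the largest among the 45 measured relatives, and lay below those of AT2G43620, AT4G22470 and AT4G23680. The other listed relatives had no named probe set and could not be ranked.

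The remaining calls in this family were smaller. AT1G62500 rose by 0.60 (SE 0.084, limma adjusted p = 0.0115), and did not pass without css1 replicate 1 (0.60, adjusted p = 0.0817) or css1 replicate 2 (0.59, adjusted p = 0.0964). AT4G22490, a near neighbour of AT4G22470, had 8.86 and 9.30 in css1, against 10.02 and 10.07 in wild type. It fell by 0.96 (SE 0.15, limma adjusted p = 0.0154), and did not pass without css1 replicate 1 (−0.74, adjusted p = 0.0570) or wild-type replicate 2 (−0.94, adjusted p = 0.0550). AT2G10940 fell by 0.47 (SE 0.11, limma adjusted p = 0.0414). That call held without wild-type replicate 2 and was lost without each other array (adjusted p = 0.0957 to 0.224). AT4G22640, which lies outside the rule for naming genes and was named after its value was seen, fell by 0.42 (adjusted p = 0.0459), and did not pass when any single array was dropped (adjusted p = 0.0558 to 0.246). AT4G22460, on the other side of AT4G22470, was at 0.11 (adjusted p = 0.660).

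Classical lipid transfer protein genes and DIR1-type genes were thinly covered, with 4 of 14 measured, 1 lower and 3 not passing, so that 1 of 4 passed against a background of 13.7%. AT2G18370 had 8.93 and 9.15 in css1, against 9.86 and 9.98 in wild type. It fell by 0.88 (SE 0.11, limma adjusted p = 0.00824), and did not pass without css1 replicate 1 (−0.77, adjusted p = 0.0576). AT5G48490, a close relative of DIR1, had 8.69 and 8.32 in css1, against 8.64 and 10.78 in wild type. Its difference of −1.21 did not pass (SE 0.64, adjusted p = 0.265) and did pass without wild-type replicate 1 (−2.28, adjusted p = 0.00760; 0.00760 to 0.666 over its alternatives), while without wild-type replicate 2, the high array, it was −0.14 (adjusted p = 0.666). AT5G01870 (−0.06, adjusted p = 0.826) and AT2G15325 (0.00, adjusted p = 0.992) did not pass either, and AT2G15325 lay near the floor of the arrays in both genotypes.

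Major latex-type genes other than AT4G23680 were measured for 14 of 25 listed members: 3 were higher, 1 lower and 10 did not pass, a share of 28.6% against 13.7%. The median difference was 0.19. AT4G23670, the gene next to AT4G23680, had 11.50 and 11.60 in css1, against 10.80 and 10.97 in wild type. How far the probe sets of these neighbours read each other was not tested. AT4G23670 rose 1.59-fold (0.67, SE 0.10, limma adjusted p = 0.0138), against 12.6-fold for AT4G23680. It did not pass without css1 replicate 1 (0.72, adjusted p = 0.0747) or css1 replicate 2 (0.61, adjusted p = 0.109).

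AT1G14960 and AT1G14950, which carry neighbouring locus numbers, rose by 0.83 (SE 0.14, limma adjusted p = 0.0182) and 1.18 (SE 0.22, adjusted p = 0.0232). The signal of AT1G14950 was low, at 5.74 and 5.08 in css1, against 4.10 and 4.36 in wild type. Its call held without css1 replicate 2 and was lost without each other array (adjusted p = 0.0541 to 0.0732). That of AT1G14960 held without wild-type replicate 1 and was lost without each other array (adjusted p = 0.0552 to 0.104). AT4G14060 had 3.50 and 4.02 in css1, against 4.54 and 4.62 in wild type, and fell by 0.82 (SE 0.17, limma adjusted p = 0.0322). Its call held without css1 replicate 2 and was lost without each other array (adjusted p = 0.0736 to 0.103). The other named members, AT1G23130 (−0.52, adjusted p = 0.0643) and AT3G26450 (0.35, adjusted p = 0.0668), did not pass. AT1G23130 passed with a second quantile normalization (−0.58, adjusted p = 0.0482; 0.0482 to 0.277 over its alternatives), and AT3G26450 with eBayes trend (0.35, adjusted p = 0.0453; 0.0453 to 0.330).

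**Figure D4:**
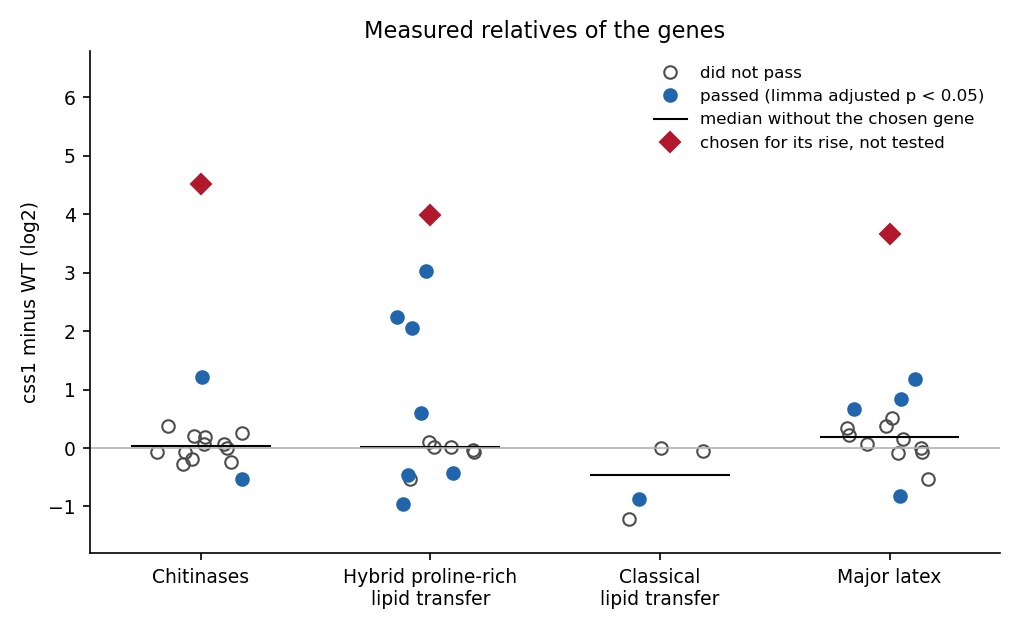
Difference css1 minus wild type (log2, y axis) of each measured gene of 4 families; filled circles passed limma at an adjusted p under 0.05, open circles did not, black lines are medians without the chosen gene, and diamonds are AT2G43620, AT4G22470 and AT4G23680. The 3 diamonds (4.52, 3.997 and 3.66) lie above every tested relative, of which AT4G12490 (3.04) comes closest.

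On the chromosome, the 3 annotated loci on either side of each of the 4 genes made 24 neighbours, of which 8 were measured and 2 passed, AT4G22490 (lower) and AT4G23670 (higher), both given above. The background share among locus-matched probe sets was 13.7%. The 6 others lay between −0.23 and 0.33. AT2G43630 and AT2G43640, on the far side of AT2G43620 from the chitinase run, were at 0.31 (limma adjusted p = 0.0671) and 0.33 (adjusted p = 0.0602). Both passed with each array centred on its median (adjusted p = 0.0474 and 0.0424), and over all alternatives their adjusted p ran from 0.0448 to 0.289 and from 0.0400 to 0.268. AT1G65490 and AT1G65510, which flank AT1G65500, were at 0.26 (limma adjusted p = 0.154) and 0.30 (adjusted p = 0.162), against 3.56 for AT1G65500. AT1G65490 had 10.72 and 10.76 in css1, against 10.59 and 10.36 in wild type, and AT1G65510 had 7.42 and 7.68 in css1, against 7.34 and 7.17 in wild type. The groups of both did not overlap, as was the case for 60.0% of all probe sets.

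Pathogenesis-related genes and their relatives, which like chitinases act against the walls or growth of pathogens, were measured for 2 of 10 listed members, of which 1 passed, against the background of 13.7%. AT4G16260, a beta-glucanase-type gene, had 11.84 and 12.06 in css1, against 11.45 and 11.18 in wild type. It rose by 0.64 (SE 0.13, limma adjusted p = 0.0299), a call that held without wild-type replicate 1 and was lost without each other array (adjusted p = 0.0838 to 0.175). PR-1-LIKE (AT2G19990) was at 0.10 (adjusted p = 0.505). None of the 8 listed chitin receptor genes was measured by a named probe set, so chitin perception is not analysed here.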

How the data were processed

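The deposited values are log2 signals on 1-colour Affymetrix arrays, which the authors derived by RMA (version not stated), according to the submitters' processing notes. Per the labels' protocols, 250 ng of total RNA went into each biotinylated cRNA. No further log, background step or scaling was applied. The 64 control probe sets were set aside, leaving 22746. The probe annotation gave 1 gene for 13513 probe sets, several for 503 and none for 8730, and 13436 matched a locus of RefSeq TAIR10.1 by gene ID. The order and overlap of neighbouring loci were taken from that annotation, and its coordinates are not printed here.

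Differences were fitted with limma 3.58.1 in R 4.3.3 (lmFit, eBayes, genotype only, two-sided, 2 arrays per genotype), with Benjamini-Hochberg adjustment over all probe sets. The procedure was run on simulated data with independent noise drawn from the fitted spread. This checks the code and cannot show how differences between real arrays affect the calls. The members and gene lists were chosen with earlier results of these data known. Named were the 4 genes, up to 6 members per family list with the smallest p, measured neighbours within 3 loci, the 3 nearest profiles and the genes at the edge in rank. No sequences were used, so the planned comparison with the closest proteins was not run. For the same reason, how far a probe set also reads close relatives of its gene was not tested in any family. The alternatives were dropping the lowest 30% of probe sets by mean signal, eBayes with trend or robust, median centring, a second quantile normalization, a replicate block, 1 probe set per locus and dropping each array in turn, where the spread of the lone array is taken from the other genotype.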

Additional observations from a re-analysis of the deposited data

How the results depend on the processing

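The differences of the 4 genes kept their direction under every alternative run. This carries no support, since the genes were chosen for this rise and each css1 array lay above each wild-type array. The signal filter, trend, robust, replicate block and 1 probe set per locus runs left these differences unchanged. Leaving out each array gave 4.31 to 4.72 for AT2G43620, 3.59 to 4.41 for AT4G22470, 3.63 to 3.69 for AT4G23680 and 3.38 to 3.75 for AT1G65500. With each array centred on its median they were 4.56, 4.04, 3.70 and 3.60. Over all probe sets, 3559 calls became 560 to 3079 without 1 array, the fewest without css1 replicate 2 (560) and css1 replicate 1 (659). Counts of relatives called without 1 array were 0 to 2 for chitinases, 3 to 6 for hybrid proline-rich genes, 0 to 2 for classical lipid transfer genes, 0 to 2 for major latex genes, 0 to 1 for pathogenesis-related genes and 0 to 2 for neighbours. The neighbours called were 4 with the signal filter, trend or centring. The cause of these shifts was not tested. The arrays share replicate numbers, but same-numbered arrays did not deviate together (correlation −0.00605 across probe sets). The labels do not say whether same-numbered samples were grown or handled together, and this correlation cannot decide it. With the number as a block, limma called 1264 probe sets, 1 chitinase, 5 hybrid proline-rich, 2 major latex and 0 pathogenesis-related genes (1 at an unadjusted p under 0.05). In the counts of 0 without 1 array, 1 to 6 genes had an unadjusted p under 0.05. Among the single genes rerun under each alternative, 6 that did not pass changed sign. Without each array in turn, LHCB4.2 ran from −0.72 to 0.48, AT2G43590 from −0.37 to 0.36 (0.036 with centring), AT2G15325 ran from −0.015 to 0.020, AT2G43610 from −0.51 to 0.039, AT4G22460 from −0.072 to 0.29 and AT5G01870 from −0.23 to 0.11. Of the other single-gene values under alternatives, 388 kept direction and call, 40 lost a call and 11 gained one. With 2 arrays per genotype and no detection calls, small differences of low-signal genes are not resolved.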

Other observations

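Among the 8730 probe sets that the annotation does not list, 7 had a css1 minus wild-type difference of at least that of AT1G65500, the largest being 5.90. Their genes are not named here.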
